A study of Mus musculus with 12 samples.

Results

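The Kdm4 family genes Kdm4a, Kdm4b, Kdm4c and Kdm4d encode histone demethylases, and Kdm4a and Kdm4c encode the Jmjd2a and Jmjd2c proteins whose binding was mapped. The 4 genes were picked by name, out of 26219 mouse genes with a curated RefSeq transcript. Their symbols were looked up among the nearest start sites given for each peak and among the genes of a table of start sites bound by both proteins, at any distance. They were named in 8 of 26438 deposited rows, which are 2 of 8977 Jmjd2a peaks, 4 of 10521 Jmjd2c peaks and 2 of 6940 co-bound start-site windows.

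Chromatin immunoprecipitation with sequencing was done on granulocyte-macrophage progenitors of leukaemic mice (L-GMP) transformed by MLL-AF9, a fusion of the histone methyltransferase MLL with AF9. The cells were Jmjd2a/b/cf/f;Rosa26::CreERT2 on a C57BL/6 background and grew in 20% serum with 10 ng/ml interleukin-3. All groups therefore carried floxed Kdm4a, Kdm4b and Kdm4c and a Cre recombinase driven from the Rosa26 locus, which 4-hydroxytamoxifen (OHT) activates, and Kdm4d is not among the floxed genes. Antibodies to Jmjd2a, Jmjd2c, H3K9me3 and H3K36me3 were used on untreated cells (Ctrl) and on cells kept in 500 nM OHT for 96 h, which gives 12 libraries in 8 groups with 1 library per group for the 2 enzymes and 2 for each mark. The sources used here do not say which of these libraries entered a peak list, and the lists hold no height, score or value per library. Depth is unknown, deletion of the floxed genes could not be checked, no OHT effect or histone mark was measured at these genes, and no peak has a replicate check. Peak positions do not report expression, so the cell type was not checked against markers.

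KDM4 enzymes are iron- and oxoglutarate-dependent dioxygenases of the Jumonji C class. They take methyl groups off trimethylated and dimethylated lysine 9 of histone H3, a mark of silent chromatin, and KDM4A to KDM4C also act on lysine 36, which is methylated over transcribed gene bodies. KDM4A, KDM4B and KDM4C carry PHD and Tudor domains that KDM4D lacks, and the Tudor domains of KDM4A and KDM4C bind trimethylated lysine 4, a mark of active gene starts.

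All 4 genes had a Jmjd2c peak over a start site, and Kdm4c and Kdm4d had a Jmjd2a peak near it as well. A gene was counted when a start site named for it lay within 1000 bp of a peak. By that measure 2 of 4 Kdm4 genes had Jmjd2a, against 27.4% of all genes, 4 of 4 had Jmjd2c, against 37.9%, and 2 of 4 had both, against 24.5%. The genes behind these shares include those for noncoding RNA as well as protein-coding ones. With 4 genes chosen by name these counts describe the genes and were not tested. A gene without a called peak may still bind the protein at a level that the unknown threshold or depth missed.

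Kdm4d was the only one of the 4 with both proteins over the start site named in the files (chromosome 9, position 14500482, minus strand, mm10). From the outer edge of the gene in the RefSeq table (position 14500522) the Jmjd2a peak was 22 bp away, so it did not cover that edge. Its Jmjd2a peak was 901 bp wide (chromosome 9, 14499600 to 14500500) and ran from 18 bp upstream of the start to 882 bp into the gene. The Jmjd2c peak was 1716 bp wide (14499727 to 14501442) and reached from 960 bp upstream to 755 bp downstream. The 2 peaks had 774 bp in common, which is 85.9% of the Jmjd2a peak and 45.1% of the Jmjd2c peak. Jmjd2a thus lay almost wholly on the Kdm4d side of the start, while Jmjd2c extended to both sides. The file places the Jmjd2a peak over an exon, an intron, the 5′ untranslated region and a promoter.

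Kdm4c, the gene for Jmjd2c itself, had the widest Jmjd2c peak and the narrowest Jmjd2a peak of the family. The Jmjd2c peak was 2087 bp wide (chromosome 4, 74250977 to 74253063) and covered the start (position 74251879, plus strand) from 902 bp upstream to 1184 bp downstream. The Jmjd2a peak was 345 bp wide (74251332 to 74251676), ended 203 bp upstream of the start and lay entirely inside the Jmjd2c peak, of which it took up 16.5%. Its deposited features are a start-site region, an intron and coding sequence. Of all 6908 Jmjd2a peaks near a start, 55.4% lay wholly inside a Jmjd2c peak, so nesting as at Kdm4c was common. Where a Jmjd2a peak lay beside the start of a single gene of known strand, it was upstream in 876 of 2126 cases (41.2%) and downstream in 1250.

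Kdm4a, the gene for Jmjd2a itself, had a Jmjd2c peak and no Jmjd2a peak near its start. The Jmjd2c peak was 1465 bp wide (chromosome 4, 118179187 to 118180651) and covered the start (position 118180043, minus strand) from 608 bp upstream to 856 bp downstream. The nearest Jmjd2a peak was 44991 bp away, at the start of St3gal3, a sialyltransferase gene. Kdm4b likewise had Jmjd2c alone, in a peak of 585 bp (chromosome 17, 56325942 to 56326526) that reached from 108 bp upstream of the start (position 56326050, plus strand) to 476 bp downstream. From the Kdm4b start the nearest Jmjd2a peak was 99073 bp away. Both peaks carry the file's labels for start-site region, exon, intron and 5′ untranslated region, and name no second gene.

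**Figure D1:**
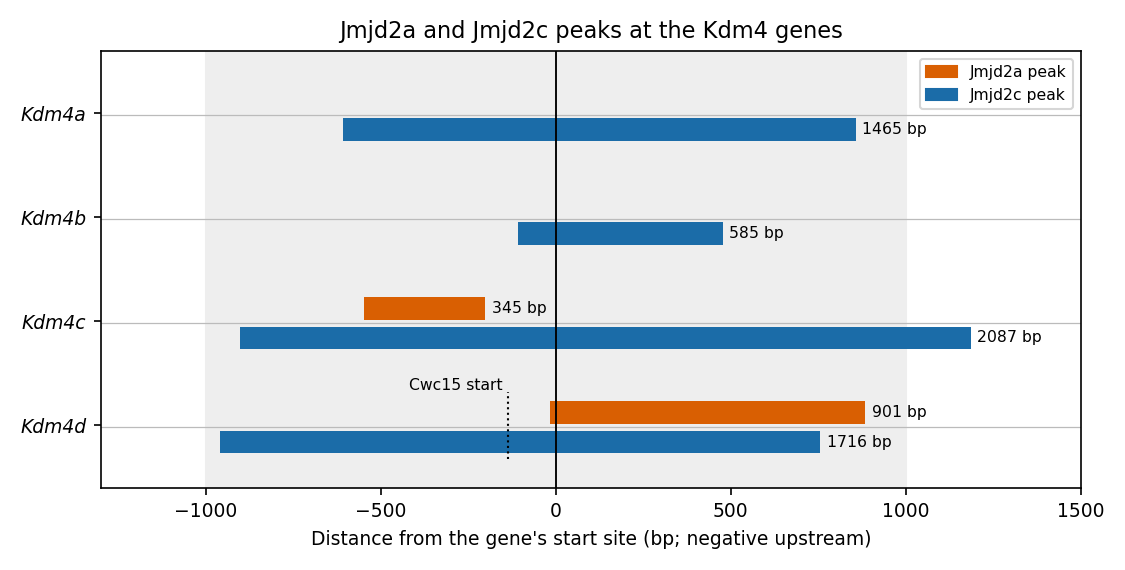
Peaks of Jmjd2a (orange) and Jmjd2c (blue) drawn to scale against distance in bp from the start site of each Kdm4 gene, in the direction of transcription, with the width beside each bar; the grey band marks 1000 bp to each side and the dotted line the start of Cwc15. Jmjd2c covers all 4 starts, Jmjd2a covers that of Kdm4d, and the Jmjd2a peak at Kdm4c ends 203 bp short of the start.

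The Jmjd2c peak at Kdm4b and the Jmjd2a peak at Kdm4c were near the narrow end of their lists. The Jmjd2c peak at Kdm4c was in the wide part of its list. The Jmjd2c peak at Kdm4b was wider than 4.69% of the 9053 Jmjd2c peaks near a start, whose median was 1366 bp (interquartile range 1031 to 1729). Those at Kdm4a, Kdm4d and Kdm4c were wider than 57.9%, 74.2% and 89.6% of that list. The Jmjd2a peak at Kdm4c was wider than 3.31% of the 6908 Jmjd2a peaks near a start, and that at Kdm4d wider than 62.5%, with a median of 761 bp (530 to 1062). The order of Jmjd2c widths was thus Kdm4c, Kdm4d, Kdm4a and Kdm4b, and that of Jmjd2a was Kdm4d before Kdm4c. Width is a position measure and says nothing of signal height, and with no replicate it is not known which of these widths differ beyond error.

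**Figure D2:**
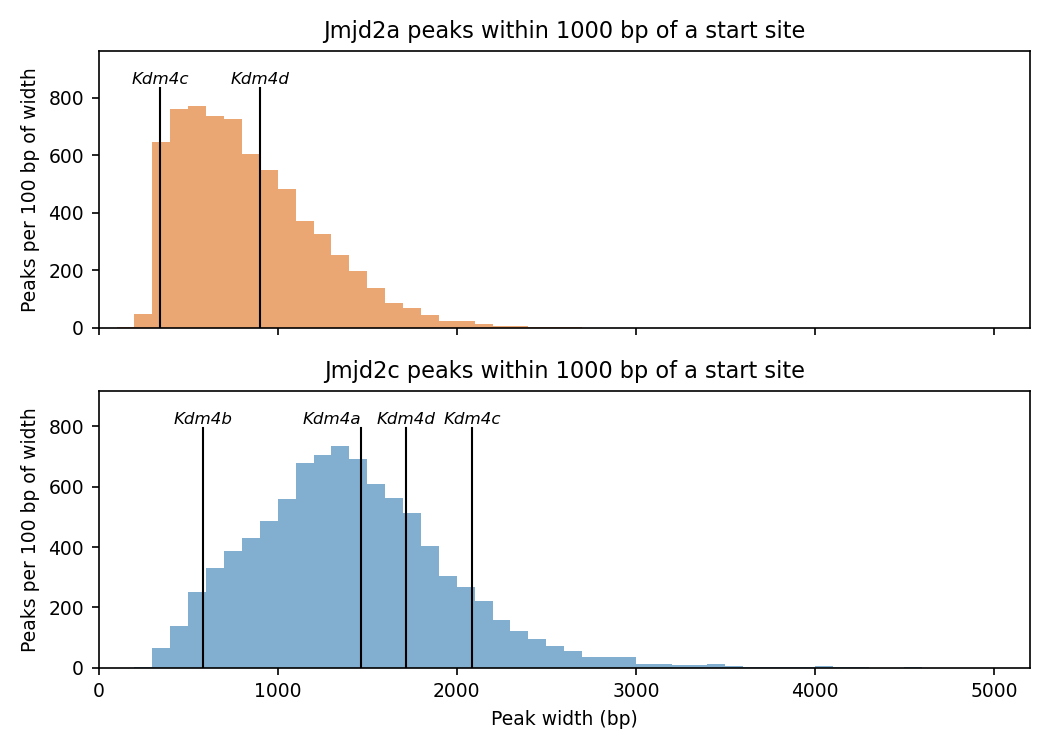
Number of peaks per 100 bp of width (vertical axis) against peak width in bp for all Jmjd2a (upper panel, 6908) and Jmjd2c peaks (lower panel, 9053) within 1000 bp of a start site, with black lines at the Kdm4 genes. Kdm4c lies at the narrow end of the Jmjd2a list (345 bp) and in the wide part of the Jmjd2c list (2087 bp), and Kdm4b at the narrow end of the latter (585 bp).

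At Kdm4a, Kdm4b and Kdm4c the Jmjd2c peak reached further into the gene than upstream, with centres 124, 184 and 141 bp downstream of the start. At Kdm4d the centre lay 102.5 bp upstream, on the side of the Cwc15 gene. Among Jmjd2c peaks covering a start of a single gene of known strand, 5019 of 6207 (80.9%) reached further downstream, with medians of 517 bp upstream and 833 bp downstream. The Jmjd2c peak at Kdm4d, for which Cwc15 is also named as nearest, is outside that set. The centre of the Jmjd2a peak was 375 bp upstream of the start at Kdm4c and 432 bp downstream of it at Kdm4d. The Kdm4c and Kdm4d peaks of Jmjd2a were therefore on opposite sides of their starts, and neither was centred where the Jmjd2c peak was.

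In the authors' deposited table of start sites bound by both proteins, Kdm4c and Kdm4d each had 1 window, and Kdm4a and Kdm4b were not listed. Windows in that table span 2001 bp. The Jmjd2a peaks covered 17.2% of the Kdm4c window and 45.0% of the Kdm4d window, and the Jmjd2c peaks 95.1% and 85.8%. Windows of the same size around the other starts were covered by Jmjd2c to 73.2% at Kdm4a and 29.2% at Kdm4b. No further peak of either protein lay over any of the 4 genes, which are 43134 bp (Kdm4a), 77805 bp (Kdm4b), 163368 bp (Kdm4c) and 37975 bp (Kdm4d) long. All peaks called at these genes were thus near a start site. In the whole lists, 6908 of 8977 Jmjd2a and 9053 of 10521 Jmjd2c peaks lay within 1000 bp of a start. RefSeq gives Kdm4c a further start at position 74242497, and the nearest peaks to it were 8480 bp (Jmjd2c) and 8835 bp (Jmjd2a) away.

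Kdm4d was the only member that shared its peaks with another gene. Cwc15, a spliceosome component gene on the opposite strand, starts 137 bp from Kdm4d (position 14500619), and both genes are named under both peaks. The Jmjd2c peak covered both starts and the Jmjd2a peak ended before the Cwc15 start, so Kdm4d alone is given as nearest to it. Cwc15 also has its own window in the table of co-bound starts. Peaks with over 1 gene under them made up 22.3% of the Jmjd2a and 24.9% of the Jmjd2c peaks near a start. Peak positions cannot assign the shared binding at this promoter to either gene.

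Kdm4a, Kdm4b and Kdm4c had no close neighbour. Next to Kdm4a, the starts of St3gal3 and of the receptor phosphatase gene Ptprf lay 45097 bp downstream and 111354 bp upstream, the first with both proteins and the second with Jmjd2c alone. Uhrf1, which encodes a factor for maintenance of DNA methylation, starts 21737 bp upstream of Kdm4b and, like Kdm4b, had Jmjd2c without Jmjd2a. Upstream of Kdm4c the nearest start was that of Frmd3 at 238276 bp, with neither protein, and downstream that of Dmac1 at 1026407 bp, with both.

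The bases before the starts are shown because the Jmjd2c peaks run over them at the bound starts and the genes differ in which protein was called. RefSeq promoters (GRCm38.p6, whose primary chromosomes are those of mm10) were matched for 3 of 4 genes, Kdm4b not being matched. Each run reads 5′ to 3′ on the gene's strand and ends at the base before the start, and capitals mark matches to the motifs given below. For Kdm4a (chr4:118180044-118180293, minus strand) and the bound start of Kdm4c (chr4:74251629-74251878, plus strand) these are the 250 bases upstream. For Kdm4d (chr9:14500483-14500618, minus strand) they are the 136 bases between its start and that of Cwc15. The last run stands before the further Kdm4c start, which had no peak near it (chr4:74242247-74242496, plus strand).
Kdm4a: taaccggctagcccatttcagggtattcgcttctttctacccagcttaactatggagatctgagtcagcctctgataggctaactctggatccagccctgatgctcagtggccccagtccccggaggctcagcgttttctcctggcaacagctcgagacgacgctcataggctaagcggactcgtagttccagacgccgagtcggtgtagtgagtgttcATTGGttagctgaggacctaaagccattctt
Kdm4c, bound start: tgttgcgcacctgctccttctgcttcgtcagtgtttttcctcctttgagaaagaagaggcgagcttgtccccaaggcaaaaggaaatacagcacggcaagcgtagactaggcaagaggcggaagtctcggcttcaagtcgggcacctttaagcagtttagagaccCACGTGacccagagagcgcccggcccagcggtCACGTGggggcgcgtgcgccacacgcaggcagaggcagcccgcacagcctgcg
Kdm4d: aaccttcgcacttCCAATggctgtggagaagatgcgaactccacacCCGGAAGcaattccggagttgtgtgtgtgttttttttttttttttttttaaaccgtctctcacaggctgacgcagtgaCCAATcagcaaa
Kdm4c, further start: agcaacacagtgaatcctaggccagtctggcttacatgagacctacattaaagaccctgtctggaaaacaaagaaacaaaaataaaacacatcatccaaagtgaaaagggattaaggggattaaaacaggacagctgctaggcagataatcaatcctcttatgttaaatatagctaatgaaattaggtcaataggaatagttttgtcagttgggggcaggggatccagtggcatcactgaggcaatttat

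CpG dinucleotides separated the Kdm4c starts. The 250 bases before the bound start held 19, with 60.4% G and C, and those before the further start held 0, with 39.6%. Kdm4a had 12 (53.6% G and C) and Kdm4d 14 (51.6%). The Kdm4d values are also over 250 bases, which run past the 136 shown and beyond the Cwc15 start. Across 23307 promoters, the median was 18 CpG where both proteins were within 1000 bp (interquartile range 13 to 25), 17 with Jmjd2c alone (11 to 23) and 3 with neither (1 to 8). The bound Kdm4c start, Kdm4d and Kdm4a were thus inside the interquartile ranges of promoters with the same proteins, and the further Kdm4c start was below that of promoters with neither. Peak calls and CpG content were compared across promoters of the same libraries, as a description.

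**Figure D3:**
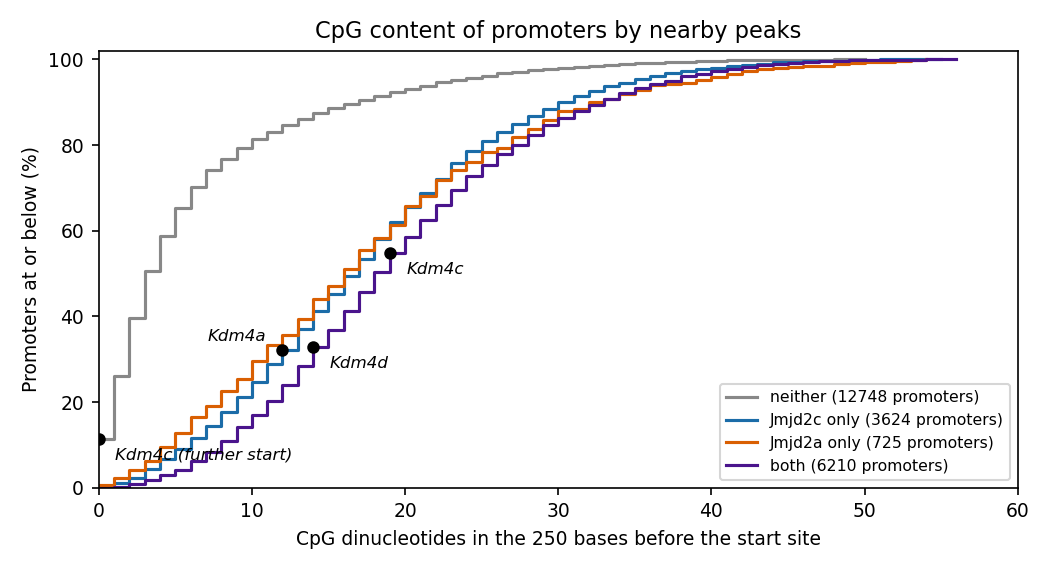
Cumulative share of promoters (vertical axis, %) against the number of CpG dinucleotides in the 250 bases before the start site, for promoters with both proteins, Jmjd2c only, Jmjd2a only or neither within 1000 bp; black points mark Kdm4 starts on the curve of their own class. The Kdm4a (12), Kdm4d (14) and bound Kdm4c (19) starts lie among the CpG-rich classes, and the further Kdm4c start (0) on the curve with neither protein.

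In the motif search, the Kdm4c promoter held CACGTG, the E-box recognised by Myc and Usf factors, at 85 and 53 bp upstream of the start. Both matches lay inside the Jmjd2c peak and outside the Jmjd2a peak. This motif occurred in 6.69% of all 250-base promoters and in 9.36% of those with both proteins. CCAAT, bound by NFY, matched at 31 bp upstream of Kdm4a on the opposite strand, and at 123 and 12 bp upstream of Kdm4d. It occurred in 35.3% of all promoters, 37% of those with both proteins and 34.5% of those with Jmjd2c alone. Each motif share counts promoters with at least 1 match. CCGGAAG, an ETS core chosen after the sequences were seen, matched Kdm4d at 146 and 90 bp, the first of these beyond the Cwc15 start and not shown, against 8.79% of all promoters and 17.3% of those with both proteins. Both strands were searched, also for CCGGAAGT (ETS, 3.71% of promoters), GCATGCGC (NRF1, 2.9%), GGGCGG (GC box, 41.7%), TGACGTCA (CREB, 1.93%), TTTCGCGC (E2F, 0.348%) and AAGATGGCG (YY1, 0.734%), which had no match in these windows. Of the motifs without a match, GGGCGG occurred in 64.9% of promoters with both proteins and 62.7% of those with Jmjd2c alone. The ETS core lies within the longer ETS motif, and the others do not contain one another. A match is a run of letters and not a bound site.

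Other genes for enzymes that write or erase histone methylation, with some related genes, were set beside the family. Of 28 histone demethylase and related genes outside the family, 26 had Jmjd2c near a start (92.9%, exact 95% binomial interval 76.5 to 99.1) and 13 had Jmjd2a (46.4%, 27.5 to 66.1), all 13 together with Jmjd2c. The remaining 2, Kdm6b, a lysine 27 demethylase gene, and Hr, had neither. For short, the 28 are called the demethylase list below, although not all, such as Jmjd7 and Hif1an, are known as histone demethylases. Of 9 genes listed as lysine 9 methyltransferases, 8 had Jmjd2c and 5 Jmjd2a, among them Setdb2 (1283 bp of Jmjd2a and 1990 bp of Jmjd2c). Of 8 genes listed as lysine 36 methyltransferases, 6 had Jmjd2c and 3 Jmjd2a, the 3 being Setmar, Smyd2 and Setd3. Activity on lysine 36 is not established for all 8, Setd3 for example. Setd2, the main trimethylating enzyme, had Jmjd2c alone (1653 bp). The Kdm4 shares of 4 of 4 and 2 of 4 carry exact intervals of 39.8 to 100% and 6.76 to 93.2%. These include the shares of all 3 lists, but intervals this wide would include most shares. They cannot decide whether the family differs from the lists, which was not tested. Median Jmjd2c widths were 1590.5 bp over the Kdm4 genes and 1573.5 bp over the demethylase list. They were 1714.5 bp over the lysine 9 and 1840.5 bp over the lysine 36 list. Median Jmjd2a widths, over the genes with a peak, were 623 bp in the family (2 genes), 996 bp (13 genes), 906 bp (5 genes) and 348 bp (3 genes).

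**Figure D4:**
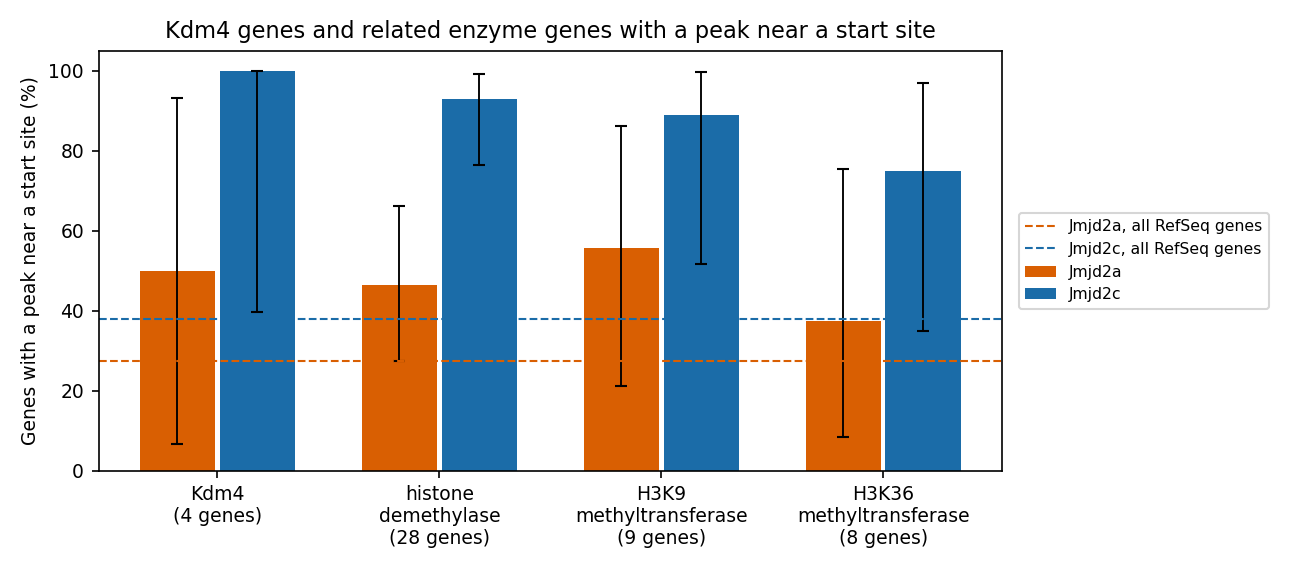
Share of genes (%) with a Jmjd2a (orange) or Jmjd2c peak (blue) within 1000 bp of a start site in the Kdm4 family and 3 lists of related enzyme genes; bars are shares, whiskers exact 95% binomial intervals, and dashed lines the shares of all 26219 genes (27.4% and 37.9%). Jmjd2c exceeds Jmjd2a in each list, and the whiskers of the 4 Kdm4 genes span most of the axis.

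The genes of the demethylase list most like each member were the 2 with the same proteins near a start and the smallest difference in Jmjd2c peak width. For Kdm4a (1465 bp) these were Uty (1387 bp) and Kdm3b (1275 bp), and for Kdm4b (585 bp) Jmjd7 (578 bp) and Hif1an (675 bp), all with Jmjd2c alone. For Kdm4c (2087 bp) they were Phf2 (2177 bp) and Kdm3a (1975 bp), with Jmjd2a peaks of 1195 and 796 bp beside the 345 bp at Kdm4c. A narrow Jmjd2a peak and a wide Jmjd2c peak were also found near a start of Jmjd6 of the same list (325 and 2506 bp). Whether those at Jmjd6 overlap was not measured. Jmjd2a peaks of 348, 329 and 388 bp were found at the methyltransferase genes Smyd2, Setmar and Suv39h1. For Kdm4d (1716 bp) they were Kdm8, with the same width, and Kdm1a (1709 bp), whose Jmjd2a peaks of 1846 and 996 bp compare with 901 bp at Kdm4d. Likeness was thus measured by which proteins were near a start and by Jmjd2c width, among 13 genes in each class, and Jmjd2a width played no part.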

How the data were processed

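The authors deposited peak edges in bp for Jmjd2a and Jmjd2c, with features, nearest start site and distance per the file headers, and windows of 1000 bp to each side of co-bound start sites. The submitters' processing notes name the build mm10 and the tools bedtools 2.25.0, SAMtools and Bowtie 0.12.7. For the peak caller, its threshold and any pooling of libraries, the sources used here give nothing. Missed weak peaks and merged or split regions would change counts and widths.

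Deposited positions count from 0 and exclude the end base, and are printed counting from 1. Joined entries list positions, accessions and names in differing order, so a gene took positions known for it from single-gene entries, windows or RefSeq promoters, and otherwise all of them. Upstream and downstream follow the gene's strand. Widths were ranked within each list. Shares carry exact binomial intervals for counting error, and genes are not replicates. No test between groups was possible, and none was made. The window and overlap steps were tested on simulated peaks at 950 start sites and gave 100% right calls. That checked the distance arithmetic at well-separated sites only, and not the assignment of start sites to genes.

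The members and lists were chosen with earlier results of these data known. Named genes are the 4 members, genes named under their peaks, the nearest start on each side and the 2 most alike genes of the demethylase list. St3gal3 is also named as the site of a nearest peak. Setdb2, Setd2, Setd3, Kdm6b, Hr, Jmjd6, Smyd2, Setmar and Suv39h1 were named after their values were seen. Of the remaining nearest starts, downstream of Kdm4b and Kdm4d, Mir6977 had neither protein and Endod1 had both. Python 3.11.15, numpy 2.4.6, pandas 2.3.3, scipy 1.17.1 and matplotlib 3.10.9 were used.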

Additional observations from a re-analysis of the deposited data

How the results depend on the processing

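Windows of 500 or 5000 bp and the start sites of the RefSeq tables left every Kdm4 gene in its class and every list count within 1.5 times its value. The overlap count stayed at 2 of 4 genes with an overlap of 50% of the shorter peak or peaks within 1000 bp, and all 8 rows lie within 1000 bp of a start. When a peak had to cover the start named in the files, Jmjd2a and both proteins fell to 1 Kdm4 gene each, Kdm4c being lost. Jmjd2a then fell to 8 genes of the demethylase list and 1 of the lysine 36 list. Under that rule the shares of all genes fell as well, to 18.9% for Jmjd2a, 35.4% for Jmjd2c and 16.6% for both. With the wider 50% of each peak list (over 706 bp for Jmjd2a and 1302 bp for Jmjd2c), Jmjd2a and both again fell to 1 Kdm4 gene, Kdm4d. Jmjd2c then lost Kdm4b, leaving 3. For Jmjd2c, 15 genes of the demethylase list were kept, and for Jmjd2a 3 of the lysine 9 and 1 of the lysine 36 list. Of all genes, 16.5% had Jmjd2a, 22.8% Jmjd2c and 9.97% both with these wider peaks. Ranked among all peaks of a list, the Jmjd2c widths were above 62.2% (Kdm4a), 7.48% (Kdm4b), 90.7% (Kdm4c) and 76.8% (Kdm4d), and the Jmjd2a widths above 4.57% (Kdm4c) and 67.7% (Kdm4d). Measured from the outermost gene edge of the RefSeq table, Jmjd2c centres moved to 171 bp (Kdm4a), 264 bp (Kdm4b), 9523 bp (Kdm4c) and -62.5 bp (Kdm4d), and Jmjd2a centres to 472 bp (Kdm4d, whose peak no longer covered that edge) and, now downstream, 9007 bp (Kdm4c), because that edge is the further Kdm4c start. No paired analysis was possible because the peak lists hold no value per sample. Depth is unknown.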

Other observations

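The deposited rows for Kdm4d show that joined entries cannot be read in order. Its Jmjd2c row gives the names Cwc15 and Kdm4d in the reverse of the order of their accessions. Among entries with 2 genes and 2 accessions, names and accessions stood in different orders in 84 of 189 Jmjd2a entries (44.4%) and 272 of 585 Jmjd2c entries (46.5%). Where RefSeq promoters placed both starts, positions followed the order of the accessions in 43 of 90 (47.8%) and 135 of 275 entries (49.1%).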
